A study of Mus musculus with 5 samples.

Results

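The subject is the bone morphogenetic protein (BMP) pathway around the early mouse eye, read through 10 of its genes. They were chosen by their known place in the pathway, with earlier results of these data known. They are the ligands Bmp4 and Bmp7, the type I receptors Bmpr1a and Bmpr1b, the antagonist Fst, the targets Id1, Id2, Id3 and Msx1, and the pseudoreceptor Bambi, which is also a target. These 10 genes, found by symbol, stand among 27998 genes of the deposited matrix, and each was detected.

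Droplet single-cell RNA sequencing, with the 10x Genomics Chromium 3′ v3 chemistry, was applied to the ocular area of wild-type C57BL/6J mouse embryos that carried no mutation or treatment. Per the labels there were 5 embryos, a different one per stage, at 12, 16, 20, 24 and 26 somites (the paired blocks of mesoderm by which embryos are staged), and both optic areas of each were dissected with a needle. All cells sit in a pooled matrix of 8194 barcodes in 5 libraries, and the numbers that separate the libraries name no stage. Stages were therefore not compared, values are given for libraries 1 to 5 as numbered, and no p-value was computed.

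BMPs are secreted dimers of the TGF-beta superfamily. They bind pairs of type I and type II serine/threonine kinase receptors, which phosphorylate SMAD1, SMAD5 and SMAD9. These join SMAD4 in the nucleus and switch on targets such as the Id genes, whose products hold back basic helix-loop-helix transcription factors. Secreted antagonists such as follistatin, the product of Fst, bind ligands outside the cell, and BAMBI sits in the membrane like a type I receptor but lacks the kinase. In the mouse eye, Bmp4 is known from the optic vesicle and is needed for lens induction, and Bmp7 is needed for lens and optic cup formation.

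The Id genes are direct SMAD targets, and short SMAD motifs in the 250 bases before the start of Id2 and Id3 show what such letters look like beside these genes. The sequences come from the RefSeq promoter table on build GRCm38.p6, which matched 6 of the 10 genes. Both strands were searched for GGCGCC, its variant GGAGCC and the SMAD4 motif CAGAC. Each line gives 30 bases around a match, 5′ to 3′ on the strand of the gene, with the motif in capitals.

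Id2, GGCGCC, 231 bases before the start, chr12:25096306-25096335, minus strand: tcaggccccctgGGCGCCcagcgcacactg
Id2, GGAGCC, 88 bases before the start, chr12:25096163-25096192, minus strand: gtatgatggacgGGAGCCcttccaccaatg
Id3, reverse complement of GGAGCC, 187 bases before the start, chr4:136143623-136143652, plus strand: cctcgcatccgaGGCTCCgctgtcctcggc
Id3, CAGAC, 167 bases before the start, chr4:136143643-136143672, plus strand: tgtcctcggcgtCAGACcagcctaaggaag
Id3, reverse complement of CAGAC, 68 bases before the start, chr4:136143742-136143771, plus strand: ggacccttggcgGTCTGttttgaataaggg

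No motif printed here overlaps another. The starts are those of RefSeq. GENCODE begins Id2 and Id3 further upstream, so that these 30 bases fall within its bounds of the genes. Such letters are common: of 32851 promoters in the table, 9.59% held GGCGCC, 26.0% held GGAGCC and 42.2% held CAGAC. The matches are descriptions of the sequence, and no binding was measured here. The Msx1 window held none of these letters, the Bmp4 window held 1 GGAGCC and the Bmpr1a window held 1 GGCGCC.

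On build GRCm38, Bmp4 lies on chromosome 14 from 46383520 to 46390669, Bmp7 on chromosome 2 from 172868012 to 172940321, and Fst on chromosome 13 from 114452290 to 114458951. Bmpr1a lies on chromosome 14 from 34410734 to 34503341 and Bmpr1b on chromosome 3 from 141837136 to 142169425. Among the targets, Id1 lies on chromosome 2 from 152736251 to 152737410, Id2 on chromosome 12 from 25093799 to 25097140, Id3 on chromosome 4 from 136143497 to 136145755, and Msx1 on chromosome 5 from 37820485 to 37824583. All 10 genes are protein-coding in the annotation. Bmp4, with 3432 unique molecular identifiers (UMIs, each a counted RNA molecule), overlaps the antisense gene Gm15222, with 306. The strand setting of the authors' counting is not given in the sources used here, so reads of this pair may not be separated.

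Libraries 1 to 5 held between 1307 and 1996 barcodes and between 41694822 and 72925591 UMIs, with a median of 20713 to 30922 UMIs per barcode. Library 5 was the shallowest per barcode, and 40 barcode sequences occurred in more than 1 library. Of 8106 cells kept, 2220 were optic vesicle-like, 1149 other forebrain-like, 362 surface ectoderm-like, 388 endothelium-like, 1701 cranial neural crest mesenchyme-like and 463 head mesoderm-like, named from marker genes in a clustering without BMP genes. Rax and Kdr stood on the marker lists that named the classes, so their levels do not test the names. Rax was at 132 to 175 CPM (UMIs of the gene per 1000000 UMIs of the class) in optic vesicle-like cells of the 5 libraries. Kdr was at 357 to 599 CPM in endothelium-like cells. A neuroepithelial cluster of 347 cells led by Nkx2-1 and Shh is called ventral here, and 797 nucleus-depleted and 228 mixed cells had no class. Rax was not particular to the vesicle. It was at 208, 165 and 171 CPM in the ventral cluster of libraries 2 to 4, and at 48.3 to 91.0 CPM in other forebrain-like cells. Different clusters held most of a class in different libraries. Optic vesicle-like cells of libraries 1 to 4 came mostly from a cluster of each library's own. Those of library 5 came mostly from the regional sub-clusters described below. Crest mesenchyme-like cells of library 5 came mostly from clusters with no cell of libraries 1 to 3. Because each library is also 1 embryo and 1 unknown stage, library, embryo and stage cannot be told apart. Erythroid-like cells show the level that free RNA can give.

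Levels are given as CPM of UMIs summed over the cells of a class. Brackets hold the exact 95% interval, which covers counting error only. A gene was called higher or lower when its CPM ratio was at least 2 either way, the interval of the ratio left out 1, the higher class had at least 20 CPM, and every library with at least 20 cells of both classes went the same way.

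Bmp4, the ligand of the dorsal optic vesicle, was read in both neuroepithelium and ectoderm. Optic vesicle-like cells had 4.91, 10.8, 11, 20.3 and 33.4 CPM in libraries 1 to 5, and surface ectoderm-like cells had 13.5, 25.2, 52.5, 90.8 and 23.0 CPM. The vesicle was lower in libraries 1 to 4, and in library 5 the interval of the ratio, 1.45 (0.843 to 2.73), held 1. Pooled, the vesicle was at 19.1 CPM (18.2 to 20.1) and the ectoderm at 46.2 CPM (42.3 to 50.3), a ratio of 0.414 (0.375 to 0.457) that was not called. Without library 5 the ratio was 0.265 and was called lower. The vesicle-like class still held 46.0% of 3404 Bmp4 UMIs with 27.4% of cells, and the ectoderm 15.6% with 4.47%. Shares of cells are not shares of RNA. The median was 30777 UMIs per cell in the vesicle, 28384 in the ectoderm and 13537 in nucleus-depleted cells.

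Elsewhere Bmp4 was at 2.94 CPM in endothelium-like cells and 4.12 CPM in other forebrain-like cells, and erythroid-like cells had 0.184 CPM. Crest mesenchyme-like cells had 0.483, 2.76, 4.48, 13.5 and 21.5 CPM in libraries 1 to 5, against 10.8, 14.6, 17.9 and 22.2 CPM in head mesoderm-like cells of libraries 1 to 4. The pooled crest level of 8.43 CPM was 5.28 CPM without library 5. The ventral cluster had 47.1, 13.3 and 3.44 CPM in libraries 2 to 4, and its pooled 22.4 CPM was 10.1 CPM without library 2. In library 2 it stood above the 25.2 CPM of surface ectoderm-like cells. The pooled order of the classes was surface ectoderm, lens placode, the ventral cluster, optic vesicle, head mesoderm and crest mesenchyme, from high to low. Of these steps, only that between head mesoderm and crest mesenchyme held in every library with at least 20 cells of both. The vesicle stood above head mesoderm when pooled but below it in each of the 4 libraries with both classes. The pooled vesicle level of 19.1 CPM was 12.5 CPM without library 5. In library 5, the only one with both, the lens placode was at 39.4 CPM and the surface ectoderm at 23.0 CPM. After each cell was thinned to 10000 UMIs, a Bmp4 UMI was found in 12.3% of optic vesicle-like cells (10.9 to 13.7%, exact Clopper-Pearson interval). The share was 22.8% in surface ectoderm-like cells and 0.791% in erythroid-like cells. Without thinning the optic vesicle-like share was 25.5%.

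Within the surface ectoderm-like class, Bmp4 differed widely among the sub-clusters. A sub-cluster of 26 cells led by the retinaldehyde dehydrogenase gene Aldh1a3 and by Sostdc1 and Pitx1 had 149 CPM, and 19 of its cells came from library 4. Another led by Aldh1a3, with 42 cells, had 102 CPM. The lowest, at 6.30 CPM, held 64 cells led by Pitx1 and Hesx1. The high ectodermal Bmp4 level therefore came from some sub-clusters and not from the class as a whole.

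Bmp7, the second ligand, was spread over neuroepithelium and ectoderm with less variation. Optic vesicle-like cells had 24.3, 23.4, 22.2, 33.7 and 41.0 CPM in libraries 1 to 5, and surface ectoderm-like cells had 52.8, 38.7, 36.4, 45.8 and 74.5 CPM. The vesicle was lower in each of the 5 libraries, but the pooled ratio of 0.702 missed the 2-fold minimum. Crest mesenchyme-like cells had 6.57, 5.62, 4.27, 5.55 and 18.1 CPM, below the vesicle in every library. Endothelium-like cells, at 0.309 CPM, did not exceed the erythroid-like level of 0.367 CPM. The vesicle-like class held 52.1% of the Bmp7 UMIs, and a Bmp7 UMI was found in 26.4% of its thinned cells, 36.3% of ectodermal and 0.791% of erythroid-like cells.

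**Figure D1:**
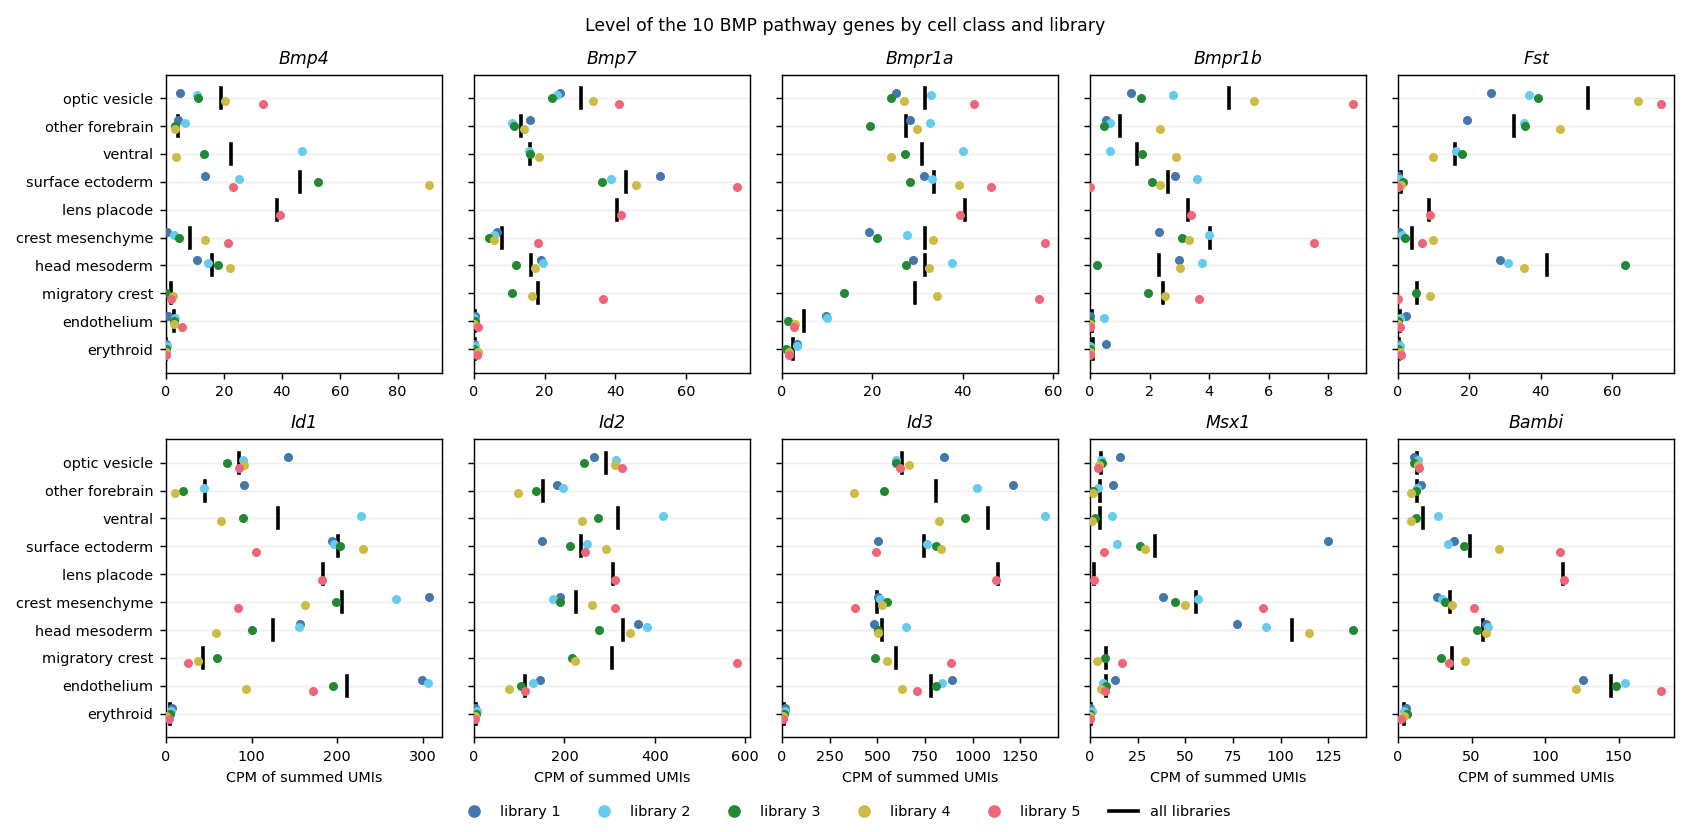
CPM (horizontal axis) of each of the 10 BMP genes in the cell classes (vertical axis), as points for each library and a black line for all libraries pooled. Fst stands at 53.3 CPM in optic vesicle-like and 0.696 CPM in surface ectoderm-like cells, and Bambi is highest in endothelium-like cells at 145 CPM.

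Bmpr1a, which encodes the broadly expressed type I receptor, was read at near-equal levels in neuroepithelial, ectodermal and mesenchymal classes and was low in vessel and blood cells. It had 31.7 CPM in optic vesicle-like cells, 33.5 CPM in surface ectoderm-like, 31.7 CPM in crest mesenchyme-like, 31.5 CPM in head mesoderm-like and 27.3 CPM in other forebrain-like cells. The pooled levels of these classes lay close together. The vesicle was below head mesoderm in each of the 4 libraries with both, at 25.3, 32.9, 24.2 and 26.9 CPM against 29.0, 37.5, 27.3 and 32.4 CPM. In endothelium-like cells it was at 9.83, 9.95, 1.23, 2.96 and 2.57 CPM in libraries 1 to 5, against 22, 29.6, 23.1, 33.2 and 58.8 CPM in mesenchyme-like cells (crest mesenchyme and head mesoderm joined). The groups did not overlap, and the ratio of 0.151 (0.116 to 0.195) was called lower. The pooled endothelial level of 4.79 CPM still stood above the 2.48 CPM of erythroid-like cells.

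Bmpr1b, which encodes the second type I receptor, was sparse. It was at 1.37, 2.77, 1.71, 5.49 and 8.83 CPM in the vesicle-like class of libraries 1 to 5, and crest mesenchyme-like cells had 2.32, 3.99, 3.09, 3.33 and 7.53 CPM. In both classes library 5 was the highest. No class passed 20 CPM, so Bmpr1b could not be called in any comparison. Its UMIs were found in 4.85% of thinned optic vesicle-like cells and in 0 of the erythroid-like ones, where a count of 0 allows up to 1.45% (exact interval).

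Fst, whose product follistatin binds activins and some BMPs, separated the vesicle from the ectoderm by a larger ratio than any other of the 10 genes. In optic vesicle-like cells it was at 26.1, 36.7, 39.2, 67.2 and 73.8 CPM in libraries 1 to 5. Surface ectoderm-like cells had 0, 0.276, 1.49, 0.782 and 0 CPM, which is 8 UMIs in all, and erythroid-like cells had 0.367 CPM. The groups did not overlap, and the pooled ratio was 76.6 (38.8 to 177), called higher. With so few ectodermal UMIs its size is uncertain: it was 163 without library 3, 184 after thinning and 38.9 with readout genes allowed in the clustering, each called higher. Fst was found in 33.7% of thinned vesicle-like cells and 0.282% of ectodermal ones, with 0.395% of erythroid-like cells.

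Fst was also read outside the vesicle, in head mesoderm-like and other forebrain-like cells. Crest mesenchyme-like cells had 0.193, 1.23, 2.03 and 9.69 CPM in libraries 1 to 4, against 28.5, 30.8, 63.5 and 35.4 CPM in head mesoderm-like cells. The head mesoderm-like level of library 4 came from 32 cells, where the vesicle marker Rax was at 50.6 CPM. The part of vesicle RNA in it was not tested. Crest was lower in all 4 libraries, with a ratio of 0.0938 (0.0790 to 0.111) that was 0.148 without library 3 and 0.058 without library 4. This result depends on how the mesenchyme is divided: with a finer clustering (Leiden resolution 2) the ratio was 1.29. Other forebrain-like cells had 19.4, 35.3, 35.5 and 45.5 CPM in libraries 1 to 4, and the vesicle's ratio over them, 1.64, was below the 2-fold minimum. Of 7122 Fst UMIs, 61.3% fell in the optic vesicle-like class, 7.05% in head mesoderm-like and 15.8% in other forebrain-like cells.

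Id1, a target that often serves as a readout of BMP signalling, was lower in the optic vesicle-like class than in the surface ectoderm-like class. Optic vesicle-like cells had 143, 89.5, 70.9, 90.7 and 85.5 CPM in libraries 1 to 5, and surface ectoderm-like cells 194, 196, 203, 230 and 105 CPM. The vesicle was lower in each library, with a pooled ratio of 0.427 (0.408 to 0.448) that was called lower. With libraries weighted equally, the ratio was 0.518 and was not called. Against 265, 246, 167, 153 and 82.8 CPM in mesenchyme-like cells, the vesicle was lower in libraries 1 to 4 and not in library 5, and the pooled ratio of 0.452 was not called (without library 5 it was 0.408 and called lower). Crest mesenchyme-like cells had 307, 269, 198, 162 and 84.3 CPM, against 157, 155, 100 and 58.6 CPM in head mesoderm-like cells of libraries 1 to 4, a ratio of 1.65 that missed 2-fold. With the finer clustering it was 2.94 and called higher.

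Within the neuroepithelium, Id1 was at 143, 89.5, 70.9 and 90.7 CPM in the vesicle and 91.7, 44.2, 20.0 and 10.2 CPM in other forebrain-like cells of libraries 1 to 4, and the vesicle was higher in each. Library by library the ratio was 1.56, 2.02, 3.55 and 8.93, and pooled it was 1.89 (1.79 to 1.99), not called. Without library 1 it was 3.60 and was called higher. Endothelium-like cells had 299, 306, 195, 93.9 and 172 CPM. A list of 8 immediate-early genes, known to rise in dissociated cells, differed between classes too. Their summed level was 74.1 to 147 CPM in optic vesicle-like, 78.0 to 193 CPM in surface ectoderm-like, 287 to 435 CPM in endothelium-like and 142 to 206 CPM in crest mesenchyme-like cells. In libraries 1 to 4 it was 147, 103, 84.3 and 74.1 CPM in the vesicle and 132, 116, 97.3 and 94.6 CPM in other forebrain-like cells. The vesicle thus had the higher sum in library 1 and the lower sum in libraries 2 to 4. The part of these genes in the Id1 differences was not tested.

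Id2 was read at like levels in most classes. In the vesicle-like class it was at 265, 314, 244, 312 and 327 CPM in libraries 1 to 5, surface ectoderm-like cells 150, 250, 213, 292 and 245 CPM, and endothelium-like cells 147, 130, 104, 77.4 and 113 CPM. The vesicle was higher than the ectoderm in each library by a ratio of 1.24 pooled, below the minimum. Endothelium was at 113 CPM pooled and mesenchyme-like cells at 246 CPM, a ratio of 0.458 (0.434 to 0.483) that was called lower. Without library 4 this ratio was 0.50 and with scaling by the median gene it was 0.507, and in neither case was it called. Other forebrain-like cells had 184, 197, 137 and 96.6 CPM in libraries 1 to 4, below the vesicle in all 4, with a pooled ratio of 1.91.

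Id3 was detected in 92.7% of thinned optic vesicle-like cells and 8.70% of erythroid-like cells. The vesicle-like class had 849, 596, 596, 667 and 620 CPM in libraries 1 to 5, and surface ectoderm-like cells 503, 758, 810, 836 and 491 CPM. The vesicle was higher in libraries 1 and 5 and lower in libraries 2 to 4, and the pooled ratio was 0.844. Other forebrain-like cells had 1210, 1020, 536 and 377 CPM in libraries 1 to 4, above the vesicle in libraries 1 and 2 and below it in libraries 3 and 4. Id3 was not called in any of the 7 comparisons. Endothelium-like cells, at 780 CPM pooled, were higher than mesenchyme-like cells, at 501 CPM, in all 5 libraries by a ratio of 1.56.

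**Figure D2:**
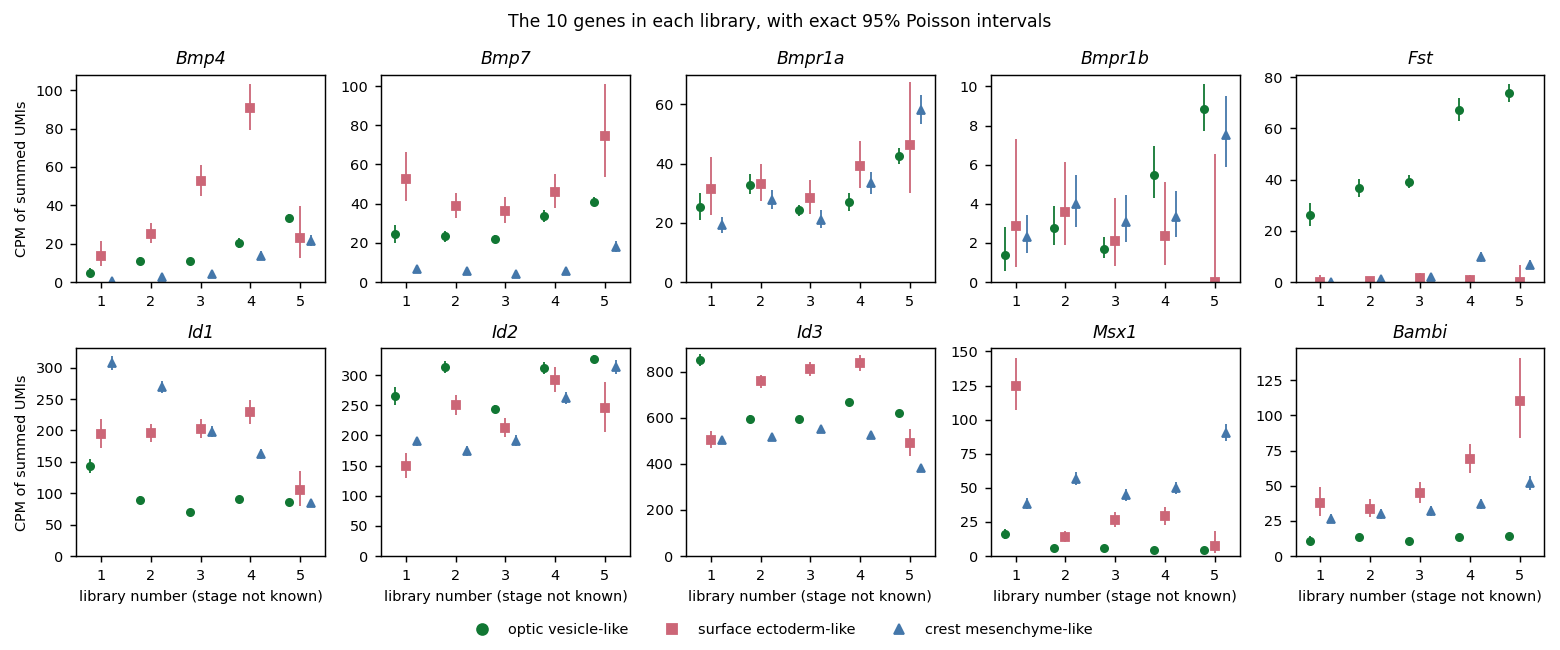
CPM of the 10 BMP genes in libraries 1 to 5 (horizontal axis, numbers that name no stage) for the cell classes, with exact 95% Poisson intervals. Fst in optic vesicle-like cells lies between 26.1 and 73.8 CPM and in surface ectoderm-like cells between 0 and 1.49 CPM, and Bmp4 overlaps between those classes.

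Msx1, a homeobox target known from crest and mesenchyme, lay mostly in mesenchyme, with 48.5% of its UMIs in crest mesenchyme-like and 22.6% in head mesoderm-like cells. The vesicle-like class had 15.9, 5.71, 6.22, 4.55 and 4.38 CPM in libraries 1 to 5, and mesenchyme-like cells 49.1, 63.7, 74.4, 55.6 and 91.1 CPM. The groups did not overlap, and the ratio of 0.090 (0.0817 to 0.0989) was called lower. Crest mesenchyme-like cells had 38.4, 56.7, 44.8 and 49.7 CPM in libraries 1 to 4, below the 77.0, 92.1, 138 and 115 CPM of head mesoderm-like cells in each. Crest over head mesoderm was 0.525 pooled and not called, and without library 5 it was 0.446 and called lower. With the finer clustering it turned to 2.10.

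In surface ectoderm-like cells Msx1 rested on library 1, with 125 CPM there and 14.1, 26.2, 29.0 and 7.09 CPM in libraries 2 to 5. In library 1 the ectoderm exceeded mesenchyme-like cells (49.1 CPM) by a ratio of 2.54 (2.14 to 3.00), and in libraries 2 to 5 it was lower. The pooled ratio of 0.519 was not called, and without library 1 it was 0.304 and called lower. A sub-cluster of 25 ectodermal cells, 22 of them from library 1, carried 143 CPM. Against this ectoderm the vesicle was lower in each library, with a pooled ratio of 0.173 (0.151 to 0.198), called lower.

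Bambi was highest in vessels. Endothelium-like cells had 126, 154, 148, 121 and 179 CPM in libraries 1 to 5, and mesenchyme-like cells 35.6, 36.1, 38.8, 38.9 and 51.5 CPM. The groups did not overlap, and the ratio was 3.66 (3.44 to 3.89), called higher. With 4.79% of cells, endothelium held 26.0% of the Bambi UMIs, and 67.7% of its thinned cells had a Bambi UMI, against 27.2% of crest mesenchyme-like and 3.56% of erythroid-like cells. Optic vesicle-like cells were at the low end, with 10.8, 13.3, 11, 13.3 and 14 CPM, and surface ectoderm-like cells had 37.8, 33.7, 44.7, 68.9 and 110 CPM. The ratio of vesicle over ectoderm was 0.258 (0.232 to 0.286), and over mesenchyme 0.319 (0.296 to 0.343), both called lower.

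Compared with surface ectoderm, the vesicle had 1 of the 10 genes higher (Fst) and 3 lower (Id1, Msx1 and Bambi), with 9 past the CPM minimum. Over all genes past the minimum, 7.13% were called, 1.75% higher and 5.37% lower. The median log2 ratio was -0.38 over the 10 genes, 1 of them under the CPM minimum, and -0.01 over all genes past it. Of the 45 other genes on lists of BMP ligands, receptors, antagonists, transducers and targets, 12 passed the CPM minimum, and of these 5 were lower and 0 higher. Dlx5, a distal-less homeobox gene of ectoderm, was at 0.756 CPM in vesicle-like and 103 CPM in ectodermal cells. The ligand Bmp2 was at 0.256 and 20.6 CPM in these classes, and the BMP antagonist Sostdc1 at 2.0 and 150 CPM. Of the 16 listed targets, members included, 8 passed the minimum, 6 of them lower in the vesicle and 0 higher. Of the 6 transducer genes 3 passed it, and none was called.

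Against mesenchyme-like cells, Bmp7 (3.14, 2.87 to 3.45) and Fst (4.68, 4.32 to 5.08, and 7.12 without library 3) were higher in the vesicle and Msx1 and Bambi lower, 4 of the 10 genes, 8 of which passed the CPM minimum, where 8.16% of all genes tested were called, 3.74% higher and 4.42% lower. The median log2 ratio was 0.29 over the 10 genes, 2 of them under the CPM minimum, and -0.07 over all genes past it. Bmp4 was higher in all 5 libraries, at 19.1 CPM in the vesicle and 9.92 CPM in mesenchyme, but its ratio of 1.93 (1.75 to 2.12) was below the minimum (without library 3 it was 2.23 and called, and without the regional sub-clusters 1.27). Among the other listed genes 1 was called, the follistatin-like gene Fstl1, with 32.3 CPM in the vesicle and 111 CPM in mesenchyme.

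Against other forebrain-like cells, of which library 5 had 1 cell, Bmp7 alone was called, higher in the vesicle with a ratio of 2.25 (2.04 to 2.49), and 6 of the 10 genes passed the CPM minimum. Over all genes tested, 1.74% were called, 0.927% higher and 0.809% lower. The call was lost without library 5 (1.88), without the regional sub-clusters (1.87), with the finer clustering (1.85) and with libraries weighted equally (1.99). Bmp4 had 19.1 CPM in the vesicle and 4.12 CPM in other forebrain, a ratio of 4.63 (3.90 to 5.54) that was not called because neither class reached 20 CPM. It was 3.04 without library 5 and 2.73 with libraries weighted equally. By library Bmp4 was at 4.91, 10.8, 11 and 20.3 CPM in the vesicle and 4.23, 6.73, 3.06 and 3.19 CPM in other forebrain, higher in the vesicle in 4 of 4, though in library 1 the interval of the ratio, 0.685 to 1.92, held 1. The median log2 ratio was 0.81 over the 10 genes, 4 of them under the CPM minimum, and -0.05 over all genes past it.

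Surface ectoderm-like cells had more of both ligands than mesenchyme-like cells. Bmp7 was higher by a ratio of 4.48 (3.97 to 5.06) and Bmp4 by 4.66 (4.14 to 5.24), 2 of the 10 genes, 8 of which passed the CPM minimum, where 9.20% of all genes tested were called, 6.22% higher and 2.98% lower. After thinning, the Bmp4 ratio was 3.18 and the call was lost. The size of the Bmp4 ratio was not shared by library 5. There, 31 surface ectoderm-like cells had 23.0 CPM (12.3 to 39.4) and crest mesenchyme-like cells 21.5 CPM (18.6 to 24.6). Of the other listed genes 4 were higher, the 3 largest ratios being those of Sostdc1 (150 and 1.13 CPM), Dlx5 (103 and 1.02 CPM) and Bmp2 (20.6 and 2.03 CPM). Fstl1 was lower, with a ratio of 0.412. Between crest mesenchyme-like and head mesoderm-like cells, Fst was the only one of the 10 genes called (7 passed the CPM minimum), where 2.78% of all genes tested were, 0.794% higher and 1.98% lower, and none of the other listed genes was called.

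Endothelium-like cells differed from mesenchyme-like cells in 4 of the 10 genes, with Bambi higher and Bmpr1a, Id2 and Msx1 lower. Of the 10 genes 6 passed the CPM minimum, over which 18.8% of all genes tested were called, 12.4% higher and 6.32% lower. The median log2 ratio was -2.24 over the 10 genes and -0.14 over all genes past the minimum. The first median also takes in the 4 genes under it, so these medians cover unlike sets. Those genes had few endothelial UMIs: Bmp4 38, Bmp7 4, Bmpr1b 1 and Fst 7. The median gene had a ratio of 0.903 here, and scaling by it divides every ratio of this comparison by that value, which raises them. The listed receptors divided: endoglin (Eng), a co-receptor of vessels, was at 220 CPM in endothelium and 3.59 CPM in mesenchyme, and the type I receptor gene Acvrl1 at 47.6 and 1.98 CPM. The co-receptor gene Rgma was lower, with a ratio of 0.0498, and the type II receptor gene Acvr2b with 0.347. Of the 10 listed receptors 6 passed the minimum, 3 of them higher and 3 lower. The target Hey1, also known as a Notch target, was higher by a ratio of 2.67.

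**Figure D3:**
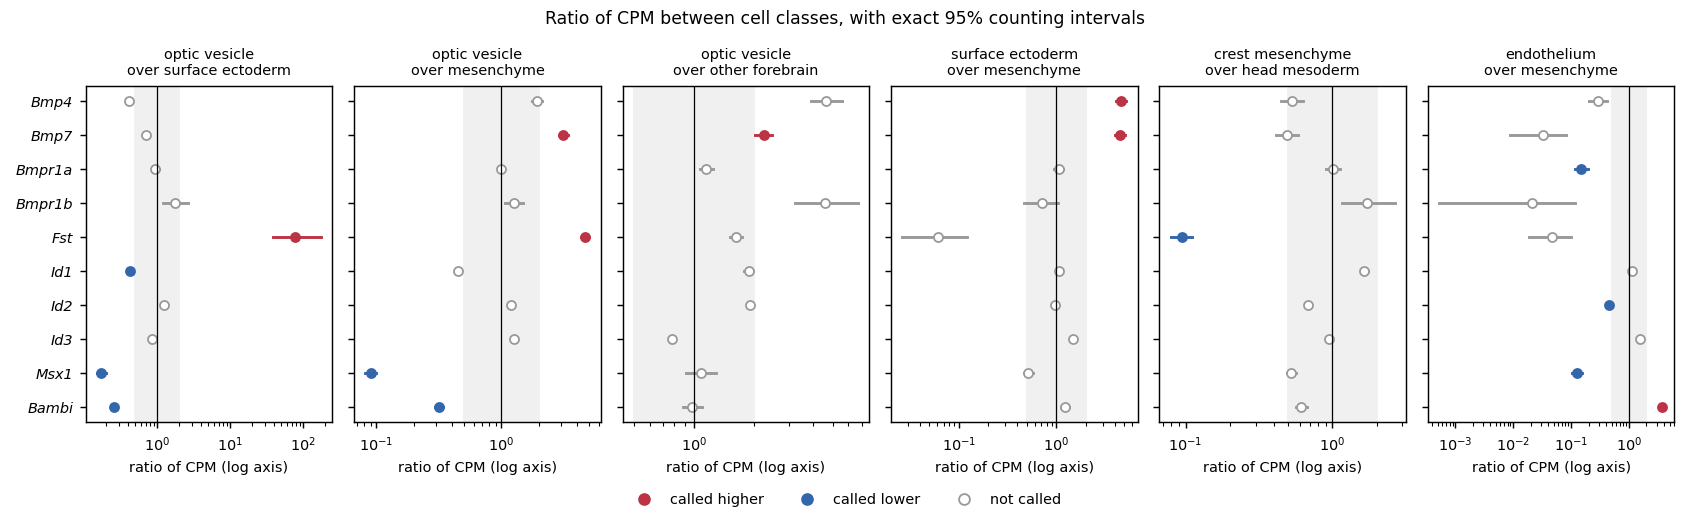
CPM ratios (horizontal axis, log scale) of the 10 BMP genes in the class comparisons, each with its exact 95% interval. Values over 1 are higher in the class named first, as for Fst in optic vesicle over surface ectoderm at 76.6 and Bambi in endothelium over mesenchyme at 3.66.

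In library 5, optic vesicle-like cells fell into neural retina-like (256 cells), retinal pigment epithelium-like (153 cells) and optic stalk-like (434 cells) sub-clusters, the last named from 3 of 5 stalk markers raised over the other neuroepithelium, with 0 of 7 neural retina markers raised. Over non-neural cells, the 2 stalk-like sub-clusters also had 7 and 6 of the 7 neural retina markers raised. The stalk list includes Pax2, Vax1 and Vax2, which are also genes of the ventral optic vesicle. The dorsal gene Tbx5 was at 28.8, 13.8 and 0.908 CPM in retina-like, pigment epithelium-like and stalk-like cells. Optic stalk and ventral vesicle therefore cannot be told apart by this naming. These regions come from 1 library and have no replicate. Bmp4 was at 56.5 CPM in retina-like, 45.7 CPM in pigment epithelium-like and 8.08 CPM in stalk-like cells. Stalk-like cells over the other regions had a ratio of 0.152 (0.121 to 0.190). Id3 went the same way, with 819, 853 and 345 CPM in the same order of regions. Id1 was at 133, 59.0 and 53.5 CPM, and Bambi at 25.7, 8.65 and 5.72 CPM, so that retina-like cells stood apart from both others. Bmp7 was at 29.9, 63.7 and 41.5 CPM and Fst at 70.0, 130 and 55.7 CPM, each highest in pigment epithelium-like cells. Bmpr1b, at 6.85, 1.11 and 13.9 CPM, was highest in stalk-like cells.

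Retina-like against pigment epithelium-like cells had Id1 (2.26, 1.98 to 2.59) and Bambi (2.97, 2.11 to 4.27) higher and Bmp7 (0.470, 0.398 to 0.554) lower, 3 of the 10 genes, 8 of which passed the CPM minimum, where 3.57% of all genes tested were called, 1.43% higher and 2.14% lower. Bmp4, with a ratio of 1.24, was not called. The T-box genes Tbx3 (a ratio of 4.51) and Tbx5 (2.09), known from the dorsal retina, were the 2 other listed genes called, both higher in retina-like cells. Keeping doublets left 1 of the 3 calls, and letting BMP and other readout genes into the clustering left 0, with ratios of 1.95 for Id1, 2.17 for Bambi and 0.753 for Bmp7. With the finer clustering Bmp7 was at 0.531 and not called, and after thinning Bambi was at 4.58.

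**Figure D4:**
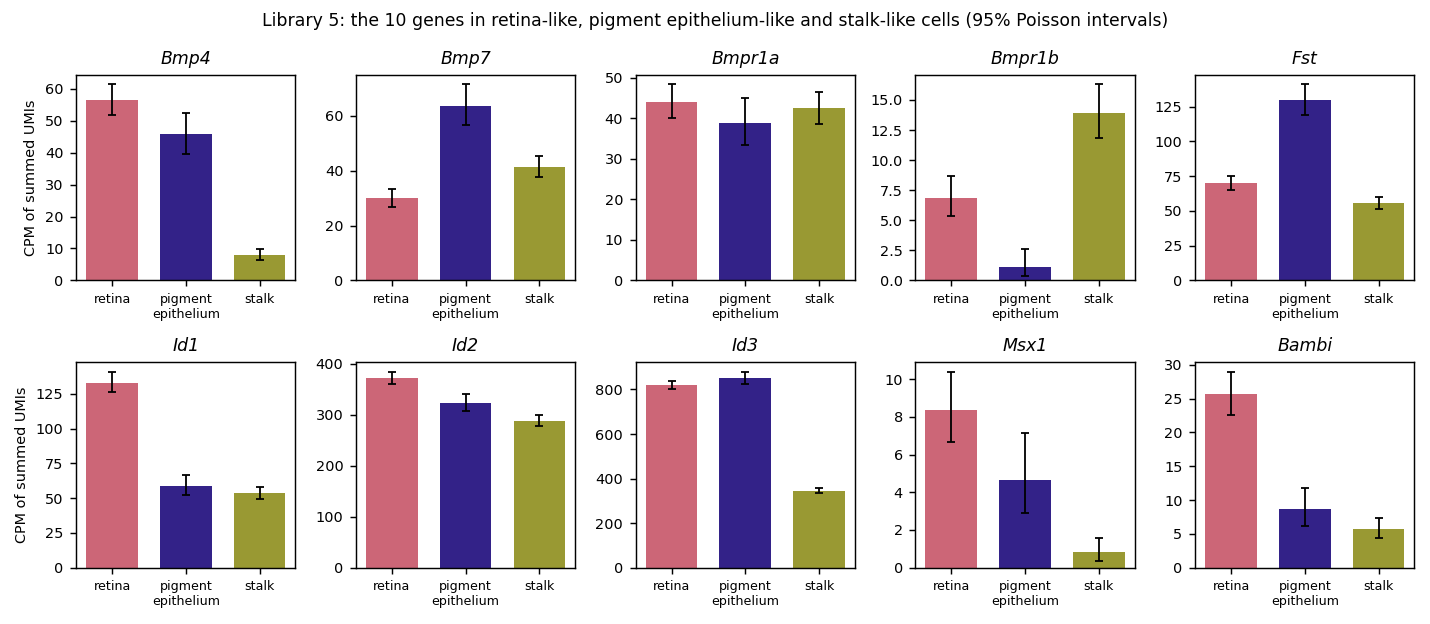
CPM of the 10 BMP genes in neural retina-like, retinal pigment epithelium-like and optic stalk-like cells of library 5, with exact 95% Poisson intervals. Bmp4 is at 8.08 CPM in stalk-like cells, which these markers do not separate from ventral vesicle. Fst and Bmp7 are highest in pigment epithelium-like cells.

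Lens placode-like cells numbered 39, of which 38 were in library 5, and were set beside the 31 surface ectoderm-like cells of that library. The vesicle marker Rax was at 50.7 CPM in the placode, 1.77 CPM in this ectoderm and 132 CPM in the vesicle of library 5. Fst was at 9.01 CPM in the placode and 0 CPM in the ectoderm. The part of vesicle RNA in the differences below was not tested. Id3 had 1120 CPM in the placode and 491 CPM in the ectoderm, a ratio of 2.28 (1.99 to 2.62). Id1 had 182 and 105 CPM, a ratio of 1.74 (1.29 to 2.39). For Bmp4, with 39.4 and 23.0 CPM, the interval of the ratio, 0.883 to 3.52, held 1. Bmp7 was lower in the placode at 41.7 CPM, against 74.5 CPM in the ectoderm (0.559, 0.350 to 0.892), and the antagonist gene Sostdc1 was lower too, at 259 and 605 CPM. Bambi was at 113 CPM in the placode and 110 CPM in the ectoderm, with a ratio interval of 0.739 to 1.43.

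Optic vesicle-like cells with a Bmp4 UMI carried more Id1, Id3, Msx1 and Bambi RNA than those without. The cells were thinned to 10000 UMIs, which left 266 with Bmp4 and 1898 without, and left out 56 shallower ones. Id1 was at 183 CPM in cells with Bmp4 and 78.2 CPM in cells without, a ratio of 2.34 (2.11 to 2.60). The ratio was 1.17, 4.75, 3.71, 3.03 and 1.58 in libraries 1 to 5, where library 1 had 6 cells with Bmp4 and library 5 had 137. Id3 was at 1130 CPM with Bmp4 and 566 CPM without, a ratio of 1.99 (1.91 to 2.07), with 2.64, 2.36, 2.05 and 1.89 in libraries 2 to 5 and 0.896 in library 1. Id2 differed less, at 388 and 294 CPM (1.32).

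Bambi was at 28.6 CPM in cells with Bmp4 and 11.4 CPM in cells without, a ratio of 2.51 (1.91 to 3.28) that was 1.59 without library 5. Msx1 was at 15.4 and 4.85 CPM, a ratio of 3.18 (2.15 to 4.64) that dropped to 1.43 when cells were thinned to 5000 UMIs. Fst had a ratio of 1.40, and the interval for Bmp7, 0.915 to 1.43, held 1. Genes of the dorsal optic vesicle were on the same side as Bmp4: Tbx5 was at 30.1 CPM in cells with Bmp4 and 3.37 CPM in cells without, a ratio of 8.92, and Tbx2 and Tbx3 had ratios of 4.68 and 4.54. When cells were thinned to 5000 UMIs, the ratio was 5.34 for Tbx5 and 3.10 for Tbx2. The ventral gene Vax2 was at 38.3 and 52.2 CPM, a ratio of 0.735 (0.594 to 0.902) that was 0.920 without library 5. The ratio of the ventral gene Pax2 was 0.812, and it turned to 1.22 without library 5. A cell without a Bmp4 UMI may still have had Bmp4 RNA, so the split is a description. In library 5 the regions named above also differed in Bmp4, and their part in the split was not tested.

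**Figure D5:**
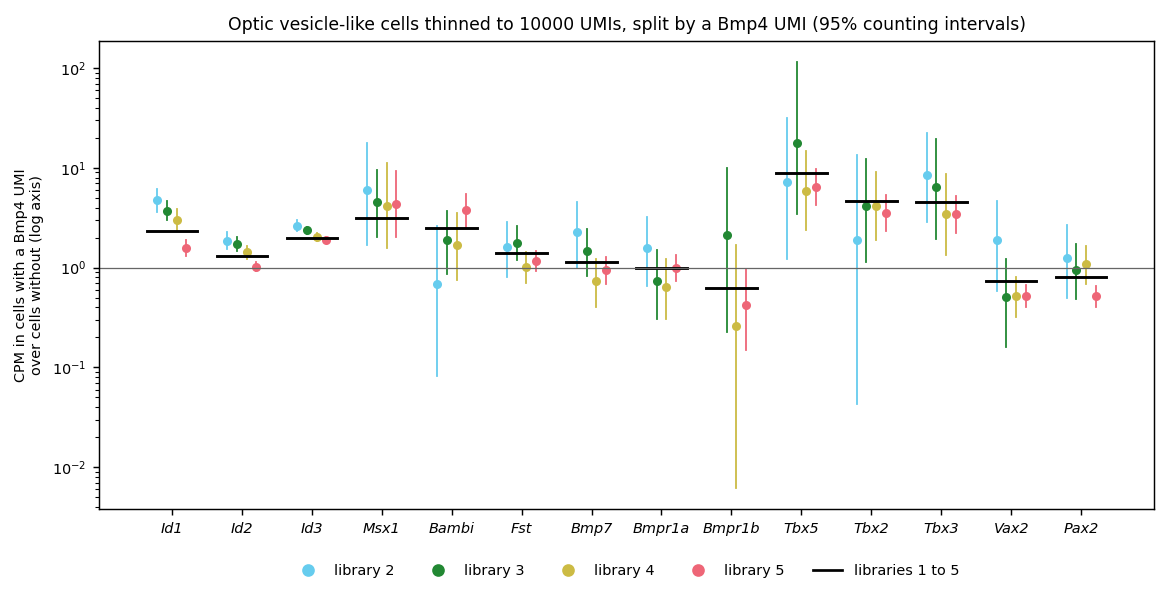
Ratio of CPM (vertical axis, log scale) in optic vesicle-like cells with a Bmp4 UMI over those without, after thinning to 10000 UMIs. Libraries 2 to 5 are shown with exact 95% intervals, and a black line without an interval gives all libraries pooled. Tbx5 stands at 8.92, Id1 at 2.34 and Id3 at 1.99 over all libraries.

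Over 40 points of class by library, each with log2(CPM + 1) values, the genes most like each of the 10 were found among 7770 ranked genes as a description. The points share libraries and classes. They include erythroid-like cells of the 5 libraries, where each of the 10 genes was at 12.5 CPM or less pooled. How far these points set an r was not tested. Bmp4 was closest to Wdr86 (Pearson r 0.880), Khdrbs3 (0.838) and Cd24a (0.831), and Bmp7 to 5730559C18Rik (0.959), Ptpn13 (0.923) and Trim2 (0.922). Fst was closest to the forkhead gene Foxd1 (0.890), C130026L21Rik (0.885) and the zinc finger gene Zic1 (0.874). Msx1 was closest to Spin2c (0.857), with Colec12 (0.841) also near the top, and Bambi to the basement membrane collagen gene Col4a2 (0.937), Tspan9 (0.929) and Rrbp1 (0.924). Bmpr1a was closest to Gpc6 (0.95), Pard6g (0.946) and Speg (0.942), and Bmpr1b to Pknox2 (0.771), Col9a1 (0.758) and Col11a1 (0.740).

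The closest partners of the Id genes were, for Id1, Pvrl2 (0.921), Surf4 (0.910) and Limk2 (0.899), for Id2 Rcn2 (0.969), Mettl9 (0.967) and Efna4 (0.966), and for Id3 Sptssa (0.976), Marcksl1 (0.971) and Ctnnb1 (0.969). Among the 10 genes themselves, Id2 and Id3 had an r of 0.936, Bmp7 and Bmpr1a 0.876, Id1 and Id3 0.831, and Id1 and Bambi 0.727. Yet the pooled levels of Id2 and Id3 parted between some classes. Id2 was at 292, 153 and 113 CPM in optic vesicle-like, other forebrain-like and endothelium-like cells. Id3 was at 630, 806 and 780 CPM in the same order. Fst and Bambi had an r of -0.190.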

How the data were processed

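The deposited counts are UMIs per gene and barcode, and their whole-number values show no normalisation. The submitters' processing notes name Cell Ranger and build mm10 (GRCm38), and the version of Cell Ranger is not given in the sources used here. The 10 genes and the pathway lists were chosen with earlier results of these data known.

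Filters of 1000 detected genes as the minimum and 10% mitochondrial UMIs as the maximum left 8172 of 8194 barcodes. Scrublet (scanpy 1.11.5) removed 66 doublets (0.808%), and in library 4 it marked only 0.403%. Cells were clustered (2000 variable genes, 30 components, 15 neighbours, Leiden resolution 1) without BMP and other readout genes, and neuroepithelial and ectodermal clusters were clustered again. Clusters were named "-like" from at least 3 markers of fixed lists. How markers were scored, and the minimum of 5 markers for optic vesicle, were set after seeing the data. Nucleus-depleted clusters had under 600 CPM of Malat1.

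UMIs were summed per class and divided by the class total (CPM). Ratios carry exact conditional-binomial 95% intervals and levels exact Poisson 95% intervals. The size rule, the ratio interval and the thinning were tested on simulated data with Poisson counting error only. Differences in expression between cells, embryos or libraries were not simulated, so false calls from them were not measured. All 10 genes are named, with up to 3 other listed genes called per direction and comparison, and for each the 3 most alike, of which 1 is not reported here. The alternatives tried were a finer clustering, doublets kept, readout genes allowed, libraries weighted equally, each library left out, median scaling, 10 CPM as the minimum and thinning. Leaving out regional sub-clusters and counting the ventral cluster as optic vesicle were added after seeing the data. The comparison between stages was not made.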

Additional observations from a re-analysis of the deposited data

Results flagged for a closer look

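Msx1 in surface ectoderm-like over mesenchyme-like cells went one way in library 1, with a ratio of 2.54, and the other way in library 2 (0.221), library 3 (0.352) and library 5 (0.0779). In library 4 the ratio was 0.520. The difference between libraries was not tested. Library 1 had 36 surface ectoderm-like cells, of which 22 lay in a sub-cluster of 25 cells led by Wnt6 and Krt8, with 143 CPM of Msx1. The numbers of the libraries name no stage, so stage, embryo and library cannot be told apart.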

How the results depend on the processing

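Of the 7 comparisons, the count of called genes stayed within 1.5 times under every alternative run in 3: vesicle over ectoderm (3 to 5 genes), vesicle over mesenchyme (4 to 5) and endothelium over mesenchyme (3 to 5). Below, brackets after a count hold the share of all genes tested that was called under the same setting. For vesicle over other forebrain, with 1 called, the count was 0 with the finer clustering (1.21%) and 0 to 4 with a library left out. It was 0 without library 5 (1.37%) and 4 without library 1 (2.32%). At a minimum of 10 CPM it was 2 (2.08%), after thinning 3 (1.91%) and without the regional sub-clusters 0 (1.37%). The genes gained without library 1 were Bmp4, Id1 and Id2, and after thinning Id1 and Id2. For surface ectoderm over mesenchyme, with 2 called, it was 1 after thinning (8.95%). For crest mesenchyme over head mesoderm, with 1 called, it was 3 with the finer clustering (3.62%) and 2 with libraries weighted equally (3.51%). It was 1 to 2 with a library left out (2 without library 5, 3.43%) and 2 at 10 CPM (3.49%). For retina over pigment epithelium, with 3 called, it was 1 with doublets kept (2.87%) and 0 with readout genes allowed in the clustering (1.41%). Directions turned with the finer clustering for crest over head mesoderm (Fst 1.29, Msx1 2.10), and for Pax2 in the Bmp4 split, whose ratio was 0.812 with all libraries, 1.22 without library 5 and 0.745 to 1.22 over the libraries left out. The cause of these changes was not tested. No paired test was run. Pairing by library entered only through the rule that every library with at least 20 cells of both classes goes the same way. Both classes of a comparison do come from the same embryo within a library, and a test over those 4 or 5 pairs was left out because the classes were made by clustering the same cells. Retina over pigment epithelium has cells in library 5 only, so leaving that library out gave no value. Depth limits Bmpr1b, which stayed under 10 CPM in every class outside the library 5 regions, and shares of cells with a UMI, which for Bmp4 in the vesicle were 25.5% unthinned, 12.3% at 10000 UMIs and 6.80% at 5000 UMIs.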
